A study of Homo sapiens with 5 samples.

Results

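The MHC class II genes and CIITA, their master regulator, were followed across 5 RNA-seq libraries of KGN cells, a long-established line grown from a human ovarian granulosa tumour. The 10 members, chosen by gene name with earlier results of these libraries known, were CIITA, CD74, HLA-DRA, HLA-DRB1, HLA-DPA1, HLA-DPB1, HLA-DQA1, HLA-DQB1, HLA-DMA and HLA-DMB. They are 10 of 35453 gene names, and 417 of 179973 transcripts, in the count table. Every culture, control included, had androstenedione at 100 nmol/L, the substrate of aromatase, in medium with charcoal-stripped serum during the 24 h of treatment. The control received nothing further by its title and ethanol by the written protocol. The other 4 groups received FSH (follicle-stimulating hormone, 100 ng/mL), FSK (forskolin, an activator of adenylate cyclase and so of protein kinase A), SC79 (an activator of AKT, 4 µg/mL) or PMA (a phorbol ester that activates protein kinase C). For FSK and PMA the treatment labels read 10 and 0.1 mmol/L, while the protocol's symbol reads as µmol/L. Each group has 1 library from RNA of 3 pooled cultures of different weeks, so no difference below has a replicate check and no test was possible. The model is 1 tumour-derived line, not primary granulosa cells.

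MHC class II molecules are pairs of an alpha and a beta chain (DR, DP and DQ) that show peptides from endosomes to CD4+ T cells. CD74, the invariant chain, fills their groove during transport, and the DM pair exchanges its remnant for peptide. CIITA does not bind DNA itself: it joins RFX, CREB and NF-Y proteins on the X and Y boxes of class II promoters. Class II is constitutive in B cells, dendritic cells and macrophages, and many other cells make it only after interferon gamma, which acts through IRF1 on CIITA.

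The X and Y boxes were looked for in RefSeq promoter windows (GRCh38.p14, 250 bases before to 50 after a gene's start), which matched 8 of the 10 genes, in 9 windows. CIITA and HLA-DRA had no entry. The Y core searched was ATTGG in NF-Y's site, and the X box was the 12-base core that RFX binds, with up to 3 mismatches, lying 15 to 22 bases before ATTGG on the same strand, both strands being searched. Windows of HLA-DRB1 and HLA-DQB1 held such a pair, against 0.159% of all 35116 windows (56 windows). ATTGG alone was in 34.6% of windows. The stretches are shown because these boxes are where CIITA acts. Capitals mark the best X match and, where present, ATTGG; all lie before the gene's start, at chr6:32589882-32589936 (HLA-DRB1, minus strand), chr6:32666733-32666787 (HLA-DQB1, minus), chr6:32941071-32941125 (HLA-DMB, minus) and chr6:32637295-32637349 (HLA-DQA1, plus).
HLA-DRB1: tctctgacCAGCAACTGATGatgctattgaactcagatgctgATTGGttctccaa
HLA-DQB1: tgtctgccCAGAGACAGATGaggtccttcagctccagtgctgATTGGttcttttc
HLA-DMB: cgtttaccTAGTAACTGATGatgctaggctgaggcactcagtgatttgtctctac
HLA-DQA1: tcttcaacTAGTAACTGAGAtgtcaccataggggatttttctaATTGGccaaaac

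HLA-DRB1 had 2 mismatches to the X box and HLA-DQB1 had 3, both with 22 bases between the boxes. HLA-DMB and HLA-DQA1 lie outside the rule and were added after the windows were seen. HLA-DMB had an X match with 2 mismatches, found alone in 2.02% of windows, and no ATTGG after it. HLA-DQA1 had 4 mismatches, a level that 69.1% of windows reach with the X box alone, and 23 bases before its ATTGG. The windows of CD74, HLA-DMA, HLA-DPA1 and HLA-DPB1 held no pair under the rule. HLA-DMA and HLA-DPA1 on the gene's strand, and CD74 on the other, had X matches with 3 mismatches. Those are fewer than the 4 of HLA-DQA1, and these stretches are not shown. Up to 3 mismatches to the X box alone were found in 17.2% of windows. These matches are descriptions of letters, and HLA-DRB5, whose window holds a pair with 2 mismatches, had 0 counts in all 5 libraries.

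Library totals lay between 5.03e+07 and 5.88e+07 estimated counts. Of 10 granulosa markers, NR5A1, a steroidogenic nuclear receptor, had 4684 to 5193 scaled counts and FOXL2, a granulosa transcription factor, 5458 (with PMA) to 10392, while WT1 was at or near 0. The list summed to 52392 scaled counts with PMA and to between 60302 and 80456 in the other libraries. Most of that sum was KRT18, a keratin, with 47760 of 67397 in control and 35952 with PMA. CYP19A1, the aromatase gene, held 27444 of the sum with FSK. It was 1.87-fold over control with PMA, so the sum does not speak for each marker. With PMA, where most class II genes were also below control, FOXL2 was at 0.547 of control, FSHR, the FSH receptor, at 0.395 and AMHR2, the AMH receptor, at 0.161, both receptor genes from under 100 scaled counts in either library. INHBA, an inhibin subunit, was 2.17-fold over control there. Of 17 immune markers, MS4A1, CD79B, AIF1, TYROBP and CD3E, genes of B cells, myeloid cells and T cells, had 0 counts in all libraries. Others were detected: PTPRC, the common leukocyte antigen, had 37.6 to 53.9 scaled counts. The 17 summed to between 207 and 237 scaled counts in control, FSH, FSK and SC79 and to 678 with PMA. There ITGAX, an integrin of dendritic cells and macrophages, had 225 (25.8 to 45.5 elsewhere), CSF1R, the macrophage growth factor receptor, 209 (56.9 to 65.7 elsewhere) and LAPTM5 165 (14.8 to 60.7 elsewhere). Only these 3 of the 17 reached 100 scaled counts with PMA. ITGAM, another integrin of the list, went the other way, from 20.2 in control to 5.94 with PMA. PTPRC had 37.7 in control and 37.6 with PMA, and CD14 had 11.9 and 9.90. The part of these marker values in the class II results was not tested.

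With FSK, each of the 10 members was higher than in any other library, from 1.73-fold for HLA-DQA1 to 9.07-fold for HLA-DMB over control. With FSH, 9 of the 10 were above control by 1.27-fold to 1.76-fold. With SC79 the genes lay close to control. With PMA 9 of 10 lay below control, CIITA among them, HLA-DRA and HLA-DMA by more than 2-fold, while CIITA was at 0.960 of its control level, a direction that turns when libraries are scaled by their totals (log2 0.01). These values chose the genes, so they are given as description.

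**Figure D1:**
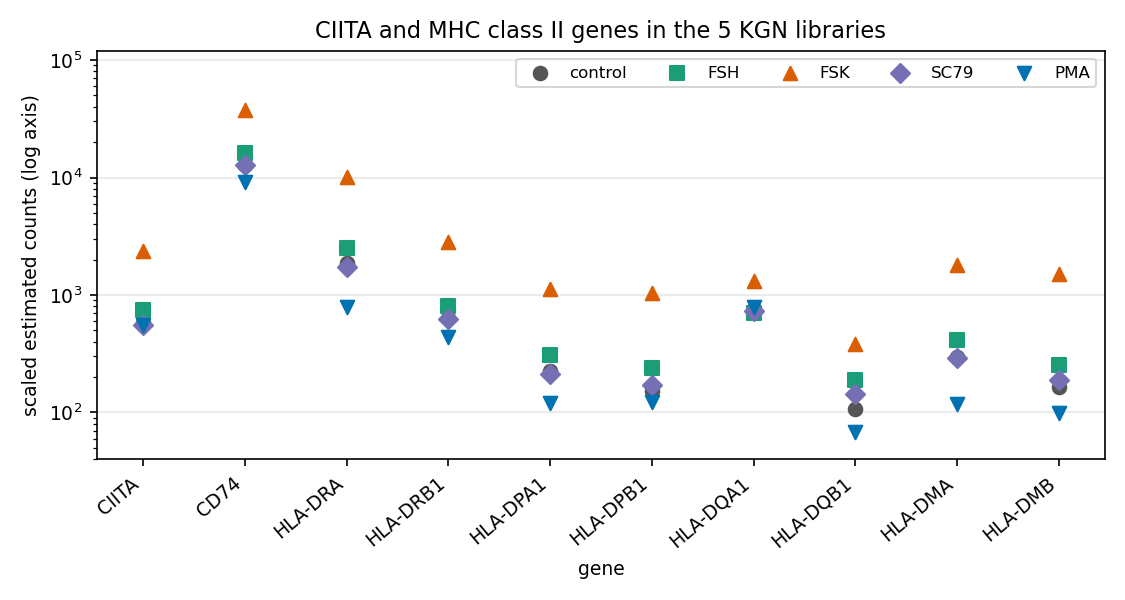
Scaled estimated counts (log axis) of CIITA and 9 class II genes, 1 point per library and gene. The FSK point is the highest for each gene, from 386 counts for HLA-DQB1 to 37249 for CD74, and the PMA point is the lowest for 8 of the 10 genes, the exceptions being CIITA and HLA-DQA1.

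To be counted as higher or lower, a gene had to differ 2-fold or more from control and reach 100 scaled counts in whichever of both libraries had more. All 10 members passed that minimum in each comparison. With FSK 9 of 10 were counted as higher, where 4.13% of 12610 genes were. With PMA 2 of 10 were counted as lower, where 3.62% of 12648 genes were. With FSH 0 of 10 were counted as higher, where 0.305% of genes were, and with SC79 0 of 10, where 0.224% were. The median log2 ratio of the 10 genes was 2.24 with FSK, 0.45 with FSH, -0.01 with SC79 and -0.58 with PMA, and over all genes compared it lay between -0.01 and 0.01. The 4 comparisons share the control library. With FSK the member just inside the 2-fold limit was CD74, at a log2 ratio of 1.54, and the member outside it HLA-DQA1, at 0.79. With protein-coding transcripts alone, an alternative chosen after seeing the data, HLA-DQA1 was at 3.62 and 10 of 10 were counted as higher with FSK. The share of all genes under that alternative was not computed, so that count has no background beside it. With PMA, by sums over all transcripts, the member just inside the limit was HLA-DRA at -1.24 and the nearest outside it HLA-DPA1 at -0.90.

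CIITA (ENSG00000179583, chromosome 16, 10866222 to 10943021, plus strand) had 582 scaled counts in control, 745 with FSH, 2379 with FSK, 551 with SC79 and 559 with PMA. The FSK library stood alone, at 4.09-fold over control [3.74 to 4.47], brackets here and below being exact 95% intervals that cover counting error only. FSH was 1.28-fold over control [1.15 to 1.42]. The SC79 ratio of 0.948 [0.843 to 1.07] and the PMA ratio of 0.960 [0.855 to 1.08] have intervals that include no difference. Between the treated libraries themselves, FSK was 3.19-fold over FSH [2.94 to 3.47].

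CIITA has alternative promoters, which in order along the gene are used in dendritic cells, in B cells and after interferon gamma. Of the 15 CIITA transcripts in the table, 8 begin between 10877198 and 10877331 on chromosome 16, and these held 96.3% of CIITA counts in control, 96.3% with FSH, 98.0% with FSK, 96.7% with SC79 and 96.7% with PMA. The most upstream annotated starts, at 10866222 and 10866260, had 0 counts in 4 libraries and 3.69 scaled counts with PMA. The downstream start at 10878969, that of CIITA-212, had 16.6 scaled counts in control, 25.4 with FSH, 43.9 with FSK, 18.3 with SC79 and 14.6 with PMA. The start region with most of the counts was thus the same in all 5 libraries. These transcripts share most of their sequence, so the split is an estimate, and no start was assigned to a promoter here.

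The main coding transcripts were CIITA-201 (1130 residues) and CIITA-214 (1131 residues). CIITA-201 had 370 scaled counts in control, 536 with FSH, 1594 with FSK, 317 with SC79 and 375 with PMA. CIITA-214 had 165, 141, 650, 182 and 126 in the same order. With FSK they were 4.31-fold [3.86 to 4.82] and 3.94-fold [3.32 to 4.67] over control, with intervals that overlap. With FSH CIITA-201 was 1.45-fold over control [1.27 to 1.65], and CIITA-214 was 0.855 of control [0.679 to 1.07], an interval that includes no difference. CIITA-209, with a retained intron, was low, from 3.33 scaled counts in control to 66.6 with FSK. The gene overlaps DEXI and short clone-named genes, and strand was not stated, so reads of overlapping genes cannot be told apart.

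CD74 (ENSG00000019582, chromosome 5, 150401637 to 150412929, minus strand), whose protein also serves as a receptor for MIF, was the most abundant member. It had 12781 scaled counts in control, 16200 with FSH, 37249 with FSK, 12731 with SC79 and 9181 with PMA. FSK was 2.91-fold over control [2.86 to 2.97] and PMA 0.718 of control [0.700 to 0.738]. FSH was 1.27-fold over control [1.24 to 1.30], and SC79 was 0.996 of it [0.972 to 1.02]. In RPKM (counts scaled to library size and to the length of 1 reference transcript per gene), CD74 had 241 in control, HLA-DRA 26.8, HLA-DRB1 9.53 and HLA-DMA 4.89. The length used for CD74 was that of the transcript CD74-201 (981 bases). CD74-202, which held most CD74 counts, has 1449 bases, and that length would give CD74 a lower value.

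CD74 is read from 4 transcripts of at least 100 scaled counts in a library, which code for chains of 232 (CD74-202), 296 (CD74-201), 160 (CD74-203) and 315 (CD74-206) residues. CD74-202 held 69.9% of CD74 counts in control, 68.9% with FSH, 68.7% with FSK, 70.3% with SC79 and 64.9% with PMA. CD74-201 held 15.5%, 16.0%, 16.9%, 15.6% and 17.0%, and CD74-203 held 11.9%, 13.4%, 11.9%, 11.8% and 15.7%. The mix of forms was close in control, FSK and SC79. With PMA CD74-202 was 0.667 of control [0.645 to 0.688] and CD74-203 was 0.954 of control [0.888 to 1.02]. With FSK the same forms were 2.86-fold [2.80 to 2.93] and 2.92-fold [2.76 to 3.09] over control.

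**Figure D2:**
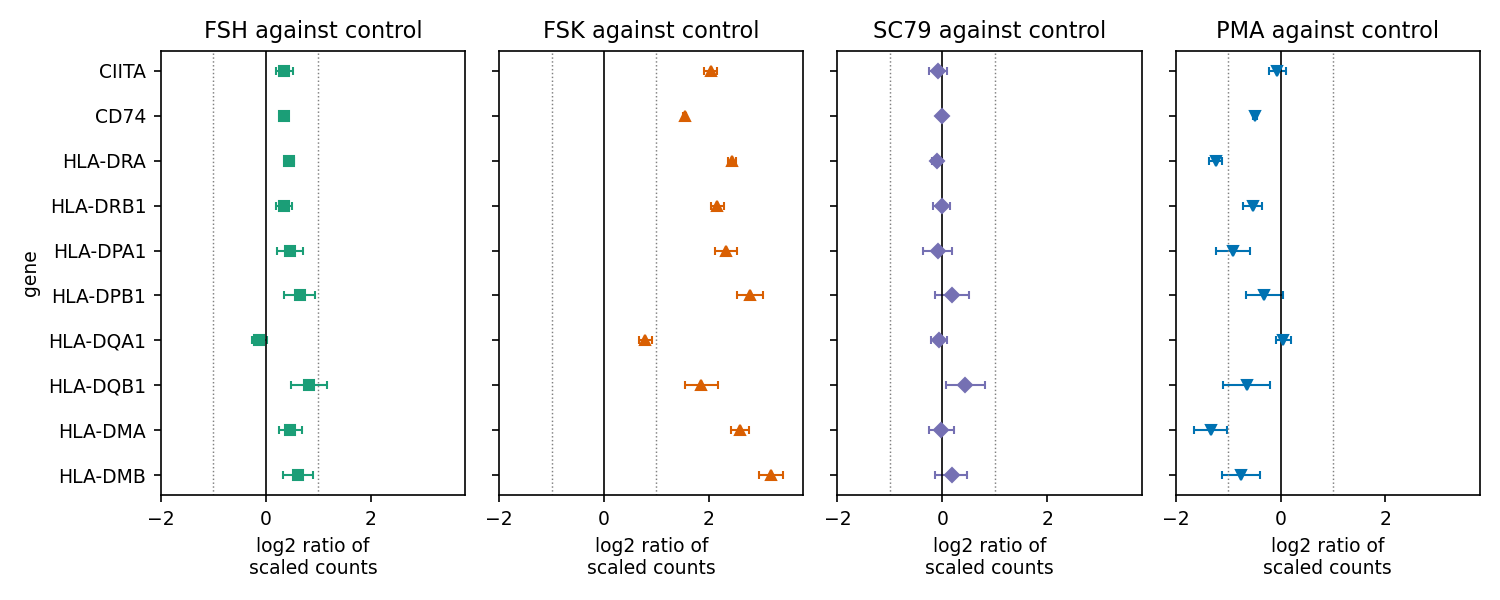
Log2 ratio of scaled counts to control for each gene (points) with its exact 95% counting interval (bars), 1 panel per treatment; dotted lines mark 2-fold. FSK ratios are all above 0, and PMA ratios are below 0 for 9 genes, with 7 intervals that do not reach 0; the sign of CIITA with PMA turns when libraries are scaled by their totals.

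The DR chains are the most abundant class II alpha and beta chains in many cells. HLA-DRA (ENSG00000204287, chromosome 6, 32439842 to 32445046, plus strand), the alpha chain, had 1855 scaled counts in control, 2524 with FSH, 10079 with FSK, 1732 with SC79 and 786 with PMA. FSK was 5.43-fold over control [5.18 to 5.70], and PMA was 0.424 of control [0.390 to 0.460]. SC79 lay slightly below control, at 0.934 [0.874 to 0.997]. From the lowest library to the highest, HLA-DRA therefore spanned 12.8-fold [11.9 to 13.8].

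HLA-DRB1 (ENSG00000196126, chromosome 6, 32578769 to 32589848, minus strand), a DR beta chain, had 633 in control, 802 with FSH, 2823 with FSK, 629 with SC79 and 437 with PMA. FSK was 4.46-fold over control [4.10 to 4.86] and PMA 0.691 of control [0.612 to 0.780]. Reads can be traded among HLA-DRB1, HLA-DRB3 and HLA-DRB4, which are near-identical copies. Summed over the DRB loci, there were 728 scaled counts in control, 917 with FSH, 3353 with FSK, 715 with SC79 and 479 with PMA. The summed DRB ratio with FSK was 4.61-fold [4.26 to 4.98], close to that of HLA-DRB1.

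HLA-DPA1 (ENSG00000231389, chromosome 6, 33064569 to 33080775, minus strand), the DP alpha chain, had 224 scaled counts in control, 309 with FSH, 1119 with FSK, 211 with SC79 and 120 with PMA. FSK was at 5.00 times control [4.34 to 5.77], and PMA at 0.535 [0.426 to 0.667]. HLA-DPB1 (ENSG00000223865, chromosome 6, 33075926 to 33087201, plus strand), the DP beta chain, had 152, 237, 1040, 173 and 123 in the same order. FSK was 6.86-fold over control [5.82 to 8.14], and the PMA ratio of 0.809 [0.637 to 1.03] includes no difference. The genes overlap head to head on opposite strands, so their counts may include each other's reads.

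HLA-DQB1 (ENSG00000179344, chromosome 6, 32659467 to 32668383, minus strand), the DQ beta chain, had the fewest scaled counts of the 10 gene sums (a value that depends on length), with 106 in control, 188 with FSH, 386 with FSK, 144 with SC79 and 68.6 with PMA. It was the member with the largest FSH ratio, 1.76-fold [1.39 to 2.24], and the 1 member whose SC79 interval lay above control, with a lower limit of 1.05 and an upper limit of 1.75. Its FSK ratio was 3.62-fold [2.93 to 4.50] and its PMA ratio 0.644 [0.469 to 0.871]. It overlaps its antisense gene HLA-DQB1-AS1.

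HLA-DQA1 (ENSG00000196735, chromosome 6, 32628179 to 32647062, plus strand), the DQ alpha chain, had 768 scaled counts in control, 704 with FSH, 1327 with FSK, 735 with SC79 and 797 with PMA. Its sum was 1.73-fold over control with FSK [1.58 to 1.89], and the intervals of its other ratios include no difference. Transcripts annotated with a retained intron held 95.1% of its counts in control and 66.3% with FSK. Those transcripts had 730 scaled counts in control, 642 with FSH, 880 with FSK, 709 with SC79 and 772 with PMA. The protein-coding transcripts of HLA-DQA1 had 23.4, 37.5, 299, 15.1 and 22.8 in the same order. Counted by coding transcripts alone, HLA-DQA1 was 12.7-fold over control with FSK [8.35 to 19.4], and its PMA ratio was 0.975 [0.520 to 1.74]. That sum does not speak for each coding transcript. In the authors' comparisons ENST00000456258.6, 1 of them, had log2 fold changes of 4.20 with FSK and -6.67 with PMA, the latter from low counts.

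**Figure D3:**
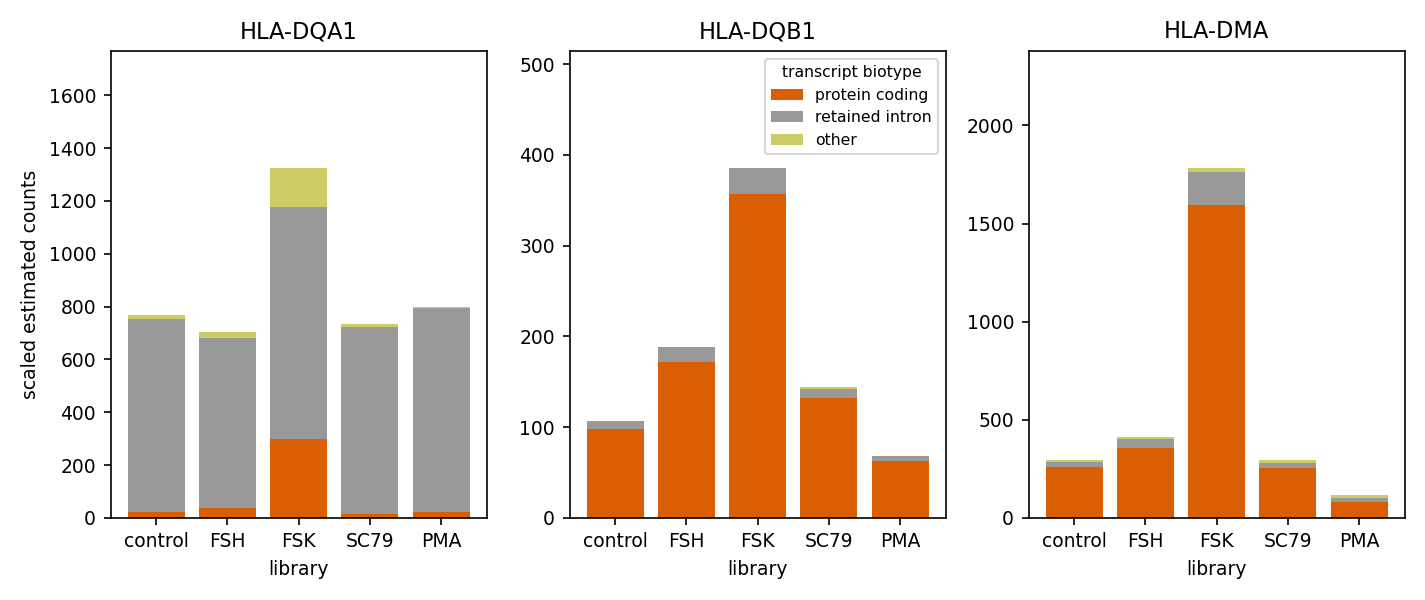
Scaled estimated counts of HLA-DQA1, HLA-DQB1 and HLA-DMA in each library, stacked by the transcript biotype in the deposited table; the vertical scale differs between panels. In HLA-DQA1 the grey retained-intron part stays between 642 and 880 counts, while the protein-coding part is 299 with FSK and at most 37.5 in the other libraries.

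The DM genes encode the peptide exchange factor of the class II pathway. HLA-DMA (ENSG00000204257, chromosome 6, 32948613 to 32969094, minus strand) had 297 scaled counts in control, 411 with FSH, 1786 with FSK, 293 with SC79 and 118 with PMA. FSK was 6.02-fold over control [5.34 to 6.80] and PMA 0.397 of control [0.319 to 0.492], the lowest PMA ratio of the 10 gene sums. HLA-DMB (ENSG00000242574, chromosome 6, 32934629 to 32941070, minus strand) had 166, 254, 1504, 188 and 99.0 in the same order. Its FSK ratio of 9.07-fold [7.75 to 10.6] was the highest of the 10 gene sums. By protein-coding transcripts it was 9.63-fold, below the 12.7-fold of HLA-DQA1. Its PMA ratio was 0.597 [0.462 to 0.764].

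Set directly against each other, the FSK and PMA libraries differed most in the DM genes and HLA-DRA, at 15.2-fold for HLA-DMA [12.6 to 18.4], 15.2-fold for HLA-DMB [12.4 to 18.8] and 12.8-fold for HLA-DRA. HLA-DPA1 followed at 9.35-fold [7.74 to 11.4] and HLA-DPB1 at 8.48-fold [7.02 to 10.3]. HLA-DRB1 was at 6.46-fold and HLA-DQB1 at 5.63-fold. CIITA was at 4.26-fold [3.88 to 4.68], CD74 at 4.06-fold [3.97 to 4.15] and the HLA-DQA1 sum at 1.66-fold [1.52 to 1.82]. The counting intervals of the DM genes and HLA-DRA lie above those of CIITA and CD74.

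By counting intervals, 9 of the 10 genes were above control with FSH, all but HLA-DQA1. Of all genes compared with FSH, 14.8% had an interval above control. With FSK all 10 intervals were above control, and 37.9% of genes were. With PMA 7 of 10 were below control, where 37.7% of genes were, and CIITA, HLA-DPB1 and HLA-DQA1 included no difference. With SC79 1 interval was above, that of HLA-DQB1, and 1 below, that of HLA-DRA, where 18.6% and 24.4% of genes were. These shares show that intervals of counting error alone leave out control for a large part of all genes.

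**Figure D4:**
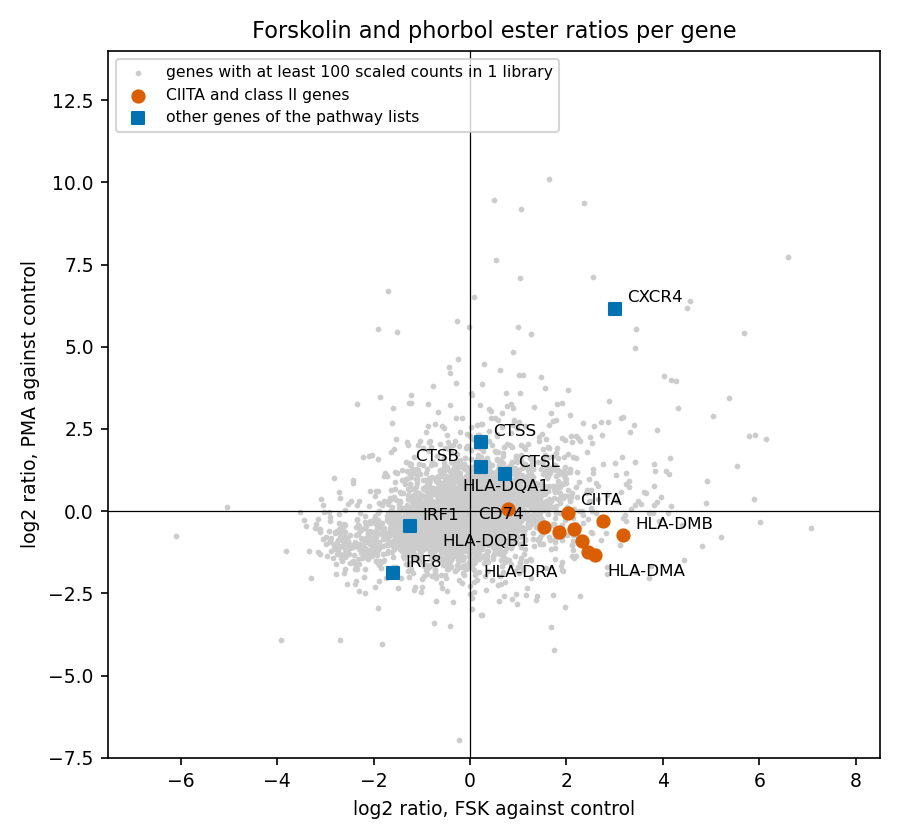
Log2 ratio to control per gene with FSK (horizontal) and PMA (vertical), for genes with at least 100 scaled counts in 1 library (grey); both ratios share the control library. CIITA and the class II genes (orange) lie right of 0, with HLA-DMA at 2.59 and -1.32, and cathepsin S (CTSS, blue) lies at 0.22 and 2.10.

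Of 7 other class II genes, 3 had at least 100 scaled counts, and they reached that minimum with FSK alone. Their high FSK ratios therefore follow in part from the minimum. HLA-DOA, the alpha chain of the DO inhibitor of DM, had 49.9 scaled counts in control, 64.1 with FSH, 441 with FSK, 53.4 with SC79 and 23.9 with PMA. It was 8.85-fold over control with FSK, with a lower interval limit of 6.70. HLA-DRB3 was 6.34-fold over control with FSK [4.81 to 8.42] and 0.419 of control with PMA [0.249 to 0.678]. HLA-DRB4 was 4.41-fold over control with FSK [3.13 to 6.36] and 0.478 of it with PMA [0.268 to 0.857]. The PMA ratios of HLA-DRB3 and HLA-DRB4 rest on 23.8 and 18.5 scaled counts with PMA. HLA-DOB, the DO beta chain, had 2.85 to 8.19 scaled counts, and HLA-DQA2 and HLA-DQB2 had at most 2.12.

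The class II genes are neighbours on chromosome 6, between 32439842 and 33087201, and 27 of the 34 annotated genes there are in the table. TAP1 and TAP2, peptide transporters of the class I pathway, had log2 ratios of -0.08 and -0.38 with FSK. PSMB8 and PSMB9, immunoproteasome subunits, were at -0.22 and -0.82. AL669918.1 is a clone-named gene that overlaps TAP2 and the class II gene HLA-DOB. It had 133 scaled counts in control, 69.8 with FSH, 76.6 with FSK, 134 with SC79 and 33.1 with PMA. Its log2 ratio of -1.97 with PMA is below that of every class II member. BRD2, a chromatin reader that overlaps HLA-DMA, was at 0.10 with FSK and 0.21 with PMA, with 12878 to 14850 scaled counts.

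**Figure D5:**
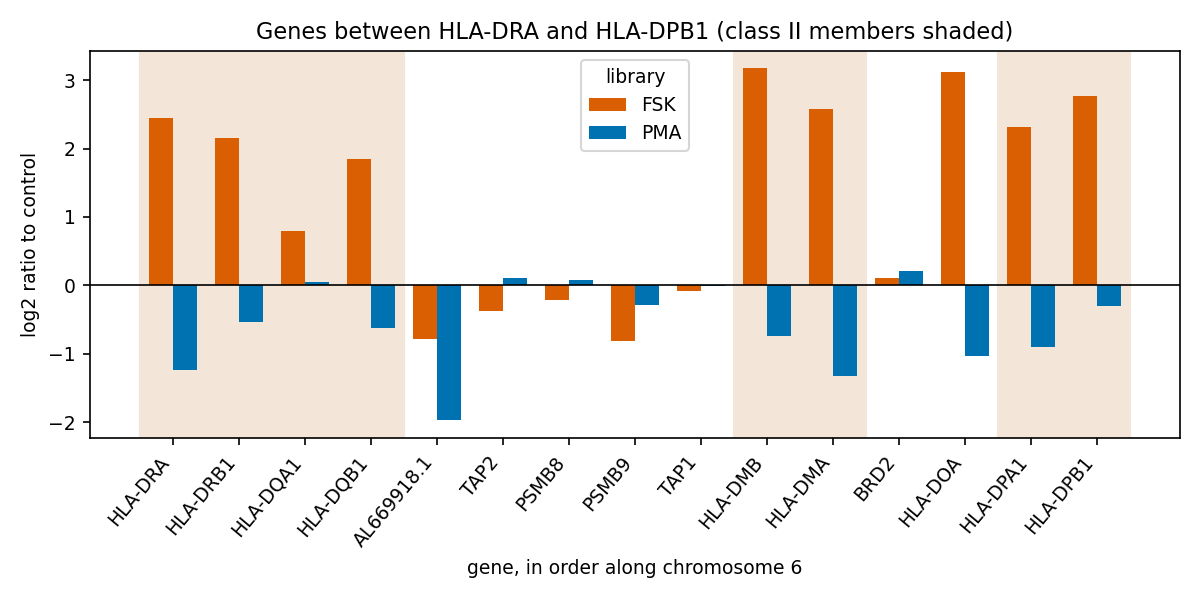
Log2 ratio to control with FSK (orange) and PMA (blue) for the genes with at least 100 scaled counts in a library, in order along chromosome 6; shading marks the class II members. The FSK bars of the shaded genes are between 0.79 and 3.17, and those of TAP2, PSMB8, PSMB9 and TAP1 between -0.82 and -0.08.

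The factors that CIITA works with were measured well above the minimum. Of 15 X-Y box factors and coactivators, 0 were counted as higher with FSK and 1 as lower, RFXAP, a subunit of the RFX complex. Over all genes compared with FSK, 4.13% were higher and 5.43% lower, so this list's counts lie near those shares. RFXAP had 238 scaled counts in control, 218 with FSH, 116 with FSK, 223 with SC79 and 227 with PMA. RFX5, its DNA-binding partner, had 2270, 2562, 3230, 2416 and 1864 in the same order, and was 1.42-fold over control with FSK. With PMA, SC79 and FSH 0 of 15 were counted in either direction. Over all genes 3.64% were higher and 3.62% lower with PMA, and at most 0.305% in 1 direction with FSH or SC79. With PMA CARM1, a coactivator methyltransferase, was lowest at a log2 ratio of -0.44. NLRC5, the related activator of class I genes, was at 0.15 with FSK and 0.48 with PMA. The list's median log2 ratio was -0.03 with FSK and -0.05 with PMA.

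In the list of the interferon gamma pathway and CIITA regulators, 16 of 19 genes passed the minimum. With FSK 0 were counted as higher and 3 as lower, where 4.13% of all genes were higher and 5.43% lower. With PMA 1 was lower, where 3.62% of all genes were. IRF1, a factor that activates the inducible CIITA promoter, had 4294 scaled counts in control, 4452 with FSH, 1805 with FSK, 4231 with SC79 and 3135 with PMA. It was thus lowest with FSK, where CIITA was highest, and highest with FSH, where CIITA was second highest. The part of IRF1 in the CIITA values was not tested. IRF8, a related factor, had 477, 445, 157, 357 and 129 in the same order. EZH2, the methyltransferase of a repressive histone mark, had 1306, 1135, 331, 1149 and 1167.

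IFNGR1, a receptor chain for interferon gamma, had log2 ratios of 0.16 with FSK and -0.27 with PMA, and SOCS1, a feedback inhibitor, of -0.26 and -0.30. PRDM1, a repressor of CIITA in plasma cells, was at -0.52 with FSK and 0.54 with PMA. IFNG, the ligand gene, had 0 counts in 4 libraries and 1.00 scaled count with FSH. SPI1 and IRF4, factors of immune cells, had at most 8.01 scaled counts.

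Of 16 genes of endosomal processing, 0 were counted in either direction with FSK, where 4.13% of all genes were higher and 5.43% lower. That says little about so short a list, whose median log2 ratio with FSK was 0.30. With PMA 3 were counted as higher, where 3.64% of all genes were, and 1 as lower, where 3.62% were, with a median of -0.08. CTSS, the cathepsin that trims CD74, had 237 scaled counts in control, 252 with FSH, 276 with FSK, 200 with SC79 and 1021 with PMA, which is 4.31-fold over control [3.76 to 4.96]. CTSB and CTSL, other cathepsins, were 2.55-fold and 2.21-fold over control with PMA, and CTSV was at a log2 ratio of -1.49. IFI30, a thiol reductase of the endosome, had 298, 316, 436, 340 and 190 scaled counts in the order control, FSH, FSK, SC79 and PMA.

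Of the partners of CD74 at the cell surface, CD44, its signalling partner, lay between 43140 and 54840 scaled counts and MIF, its ligand, between 6945 and 7850. CXCR4, a chemokine receptor that pairs with CD74, had 10.1 scaled counts in control, 11.0 with FSH, 87.9 with FSK, 3.18 with SC79 and 793 with PMA. ACKR3, the related scavenger receptor, had 45.0, 125, 202, 64.6 and 23.8. The costimulatory genes CD80 and CD86 had 0 counts and at most 3.18 scaled counts, and CD40 at most 6.00. ICAM1, an adhesion ligand for T cells, was counted as higher with PMA, at 4.43-fold [3.61 to 5.48]. It was the 1 of 5 measured costimulatory genes so counted, where 3.64% of all genes were. With FSK 0 of 5 were counted, which at 4.13% higher and 5.43% lower over all genes says little about so short a list.

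Likeness of pattern was measured as the Euclidean distance of the 4 log2 ratios, among 14584 genes with a mean of at least 20 scaled counts. The 5 genes nearest to CIITA were DLGAP1 (distance 0.164), TMEFF2 (0.253), MXRA5Y (0.347), TGFBR1 (0.358) and TNFSF10 (0.379). Of the class II genes HLA-DRB1 was nearest to CIITA, at rank 18, and CD74 was at rank 50. HLA-DRA was at rank 408 and HLA-DMA at rank 616, with PMA log2 ratios of -1.24 and -1.32 where CIITA had -0.06. The 5 genes nearest to CD74 were ITPR1 (0.139), GPR85 (0.152), ADAMTS5 (0.214), PAK3 (0.226) and MTHFD1L (0.293).

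The authors' deposited table of comparisons is per transcript. It lists 37 transcripts of the 10 genes with at least 100 scaled counts in a library. A transcript could reach that minimum through the FSK library alone. The coding transcripts of HLA-DQA1, for example, together had 23.4 scaled counts in control and 299 with FSK. The number above 0 with FSK and its median therefore follow in part from this choice. In the authors' deposited table all 37 had a log2 fold change above 0 with FSK, with a median of 2.73, and 35 were below 0 with PMA, with a median of -0.63. Among the 37 the largest FSK log2 fold change was 4.20, for an HLA-DQA1 transcript (ENST00000456258.6). The authors' p-values are not printed, because each group has 1 library and so no replicate spread. Several of the 37 transcripts are haplotype versions of 1 gene and carry the same values, so the 37 are not independent.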

How the data were processed

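RNA was measured in 5 poly(A) libraries of KGN cells, 1 per group, each from 270 ng of RNA pooled from 3 cultures (90 ng each). Per the submitters' processing notes, Trimmomatic, kallisto and edgeR were used; versions, transcript index and build were not stated in any source used. The authors deposited estimated counts per transcript, a normalized signal per transcript (the deposited counts times 1 constant per library, 0.934 to 1.03) and a comparison table with log2 fold changes and p-values. The last includes an LH comparison, which has no library here and was not used. Of the transcripts, 91.0% have an identifier in GENCODE release 29 (GRCh38), from which coordinates come, and 89.6% also the same version.

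Estimated counts were summed per gene name, rounded and scaled with TMM in edgeR 4.0.16 (R 4.3.3) to the mean library size. Log2 ratios used a pseudocount of 1. Intervals are exact conditional binomial (Clopper-Pearson) at 95%; PCR reads lacking molecular identifiers are not independent, so the intervals cover counting error only. The calls and intervals were run on simulated Poisson counts with planted changes. Those counts hold no replicate spread and no reads shared among transcripts, so the run checks the code and not the intervals on these data. RPKM was computed from the deposited counts. Alternatives were DESeq2 1.42.0 size factors, the library total, the deposited constants, other minimums, folds and pseudocounts, another denominator, and subsets of transcripts. Calculations ran in Python 3.11.15 with pandas 2.3.3 and scipy 1.17.1.

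The members and gene lists were chosen with earlier results of these data known. Named were all 10 members; of each list up to 3 highest and 3 lowest ratios per treatment among genes with at least 100 scaled counts, of which a part is printed; NLRC5, RFX5, IRF1, IFNGR1, SOCS1, PRDM1, CTSS, IFI30 and CD44; and the 5 genes nearest in pattern to CIITA and CD74. Some list genes are not reported here. Genes at or near 0, those of the chromosome 6 region and further markers were added after their values were seen. Lists of granulosa, immune and endothelial markers served to check the cells.

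Most counts of the HLA members lie on transcripts of alternative haplotypes that GENCODE's primary assembly does not hold; transcripts with the same sequence carry the same values. For HLA-DMA 65 of 75 transcripts with counts share their values with another.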

Additional observations from a re-analysis of the deposited data

How the results depend on the processing

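No paired analysis was possible because each group has 1 library. For the same reason no replicate could be left out, and the depth limits only counting error. Of 249 alternative values of single genes and CIITA transcripts, 220 kept their side of the 2-fold limit and stayed within the counting interval where they were not past it. The sign turned in 11, none with a main value past 2-fold. HLA-DQA1 with FSH went from -0.12 to 0.65 with protein-coding transcripts, and CIITA with PMA from -0.06 to 0.01 with library totals. With the deposited constants HLA-DPB1 with SC79 went from 0.19 to -0.08, HLA-DMB with SC79 from 0.18 to -0.09, HLA-DQA1 with PMA from 0.05 to -0.18, CIITA-201 with PMA from 0.02 to -0.22 and CIITA-214 with SC79 from 0.14 to -0.13. The cause was not tested. At 1.5-fold the members counted as higher with FSH went from 0 to 3 and those lower with PMA from 2 to 5. A wider limit counts more genes by construction, and at 1.5-fold 0.73% of all genes were higher with FSH and 9.2% lower with PMA. With the median of the other 4 libraries as denominator 5 members were lower with PMA. That denominator includes the FSK and FSH libraries, where most members were above control, so it can lie above control for them. The share of all genes under that denominator is not given here. The count of 9 higher with FSK stayed within 1.5 times under every alternative for which it was made. It was not made with primary-assembly transcripts alone, which hold too few counts for most HLA members.

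The constants of the deposited table do not equalise depth and moved the median of all genes to between -0.16 and -0.28. Under them HLA-DPA1 passed 2-fold with PMA at -1.13, and CIITA with PMA was at -0.29. With protein-coding transcripts alone HLA-DPA1 was at -1.25 with PMA and HLA-DQA1 at 3.62 with FSK. With primary-assembly transcripts alone too few counts were left for most HLA members: HLA-DMA with FSK was at 3.17 from under 100 scaled counts. The count by protein-coding transcripts was chosen after seeing the data.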

Other observations

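The endothelial markers are the other list that stood apart with PMA. PECAM1, TIE1 and VWF, which are adhesion, receptor and clotting proteins of endothelium, were 2-fold or more above control there, PECAM1 at a log2 ratio of 2.57, TIE1 at 3.27 and VWF at 1.26. Of all genes compared with PMA, 3.64% were counted as higher, and a list of 4 genes is short. The 4 markers summed to 1236 scaled counts with PMA and to between 221 and 247 in the other libraries, while CDH5, a defining gene of endothelium, was at or near 0. LAPTM5, a lysosomal protein of blood cells, was at 3.25 with PMA and 1.82 with FSK. The part of these genes in the class II values was not tested.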
